A study of Arabidopsis thaliana with 6 samples.

Results

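The ABCB and ABCC genes encode ATP-binding cassette (ABC) transporters, membrane pumps that use ATP to move substrates across a membrane. Members were the protein-coding genes whose symbol in the RefSeq gene table is ABCB or ABCC followed by a number. This gave 42 genes, 27 ABCB and 15 ABCC, of 27444 protein-coding genes on the 5 nuclear chromosomes. The families were chosen by measured values: earlier results from the same lists placed ABCC4 and ABCB12 among the arm genes with the most H3K27me1 and no 5mC. The coverage of each gene by domains is therefore given as a description, with no test.

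ABC transporters are built from membrane-spanning domains and nucleotide-binding domains. A full-size transporter carries 2 of each in 1 protein, while a half-size transporter carries 1 of each and works as a dimer. ABCB transporters are related to animal P-glycoproteins, and several of the full-size ones carry the plant hormone auxin across the plasma membrane. ABCC transporters are related to animal multidrug resistance-associated proteins, and the best studied ones load the vacuole with glutathione conjugates, metal chelates or phytate. H3K27me1, a single methyl group on lysine 27 of histone H3, and 5mC, methylated cytosine, are marks best known from silent heterochromatin.

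All samples came from young leaves of 1 strain of Arabidopsis thaliana, Col-0, grown in soil in short days, and the labels name no mutant or treatment. H3K27me1 was collected by chromatin immunoprecipitation (ChIP) and 5mC by immunoprecipitation of methylated DNA (MeDIP), each in 2 samples numbered as replicates, beside 2 MeDIP input samples. The samples include no input or other control for the H3K27me1 ChIP. No label says whether the replicates were separate plants. The deposited files give 1 set of enriched domains for each mark, with 13068 domains and 12706852 reads for H3K27me1 and 12238 domains and 28021211 reads for 5mC. These totals count reads inside domains, and library depth is unknown here. Since a domain has a single value that is not split by replicate, no replicate error can be given for any result. Whole leaves hold several cell types, and fewer marked cells cannot be told apart from less of a mark per cell.

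H3K27me1 domains reached most members, while 5mC domains reached a share near that of genes of like length and region. Genes that share length class and region with the members, averaged over members, were touched by H3K27me1 in 26.5% and by 5mC in 32.8% of cases. Of the 42 genes, 32 (76.2%) had at least 1 bp in H3K27me1 domains, against a background of 22.3% of all protein-coding genes. Members are long, with a median of 5492 bp, and longer genes are touched more often. Among the 2502 genes in the top length class (1 of 10) of arm genes, which are at least 4249 bp and are named long arm genes here, 26.6% were touched by H3K27me1. Of the 33 members in that class, 26 (78.8%) were touched. 5mC touched 11 of the 42 members (26.2%), against 15.6% of all protein-coding genes and 32.1% of the long arm genes, and 8 of the 33 members in that class (24.2%).

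On the arms, the coverage itself was higher for H3K27me1 and lower for 5mC than in genes of like length. H3K27me1 domains held 23.6% of the summed length of the 33 long arm members, against 4.71% for the 2469 other genes of the class. For 5mC the values were 1.82% and 3.24%. In the 6 pericentromeric members 5mC lay the other way, with 15.3% of their summed length against 8.62% for the 237 other genes of like length there, and 4650 of those 5250 bp were on ABCC13. H3K27me1 held 24.4% and 9.00%. At least 50% of the gene lay in H3K27me1 domains for 6 of the 42 members, against 7.62% of all protein-coding genes. Among the 33 long arm members the count was 5, against 1.32% of the long arm genes. These 5 include ABCC4 and ABCB12, through which the families were chosen. At least 25% lay in H3K27me1 for 17 members (40.5%), against 14.6% of all protein-coding genes, and for 14 of the 33 long arm members (42.4%), against 7.19% of the long arm genes. A 5mC coverage of at least 50% was found for 1 member, ABCC13, against 3.69% of all protein-coding genes. It was found for 0 of the 33 long arm members, against 0.679% of the long arm genes. Of the 237 other genes of like length in pericentromeres, 15 had that much. H3K27me1 without any 5mC was found on 24 of the 42 members, both marks on 8, 5mC alone on 3 and neither on 7. Over all 27444 protein-coding genes these counts were 4223 (15.4%), 1909, 2372 and 18940, and over the 2469 other long arm genes 391 (15.8%), 248, 547 and 1283. Median coverage of the members was 20.5% for H3K27me1 and 0% for 5mC, and the median over all protein-coding genes was 0% for both.

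**Figure D1:**
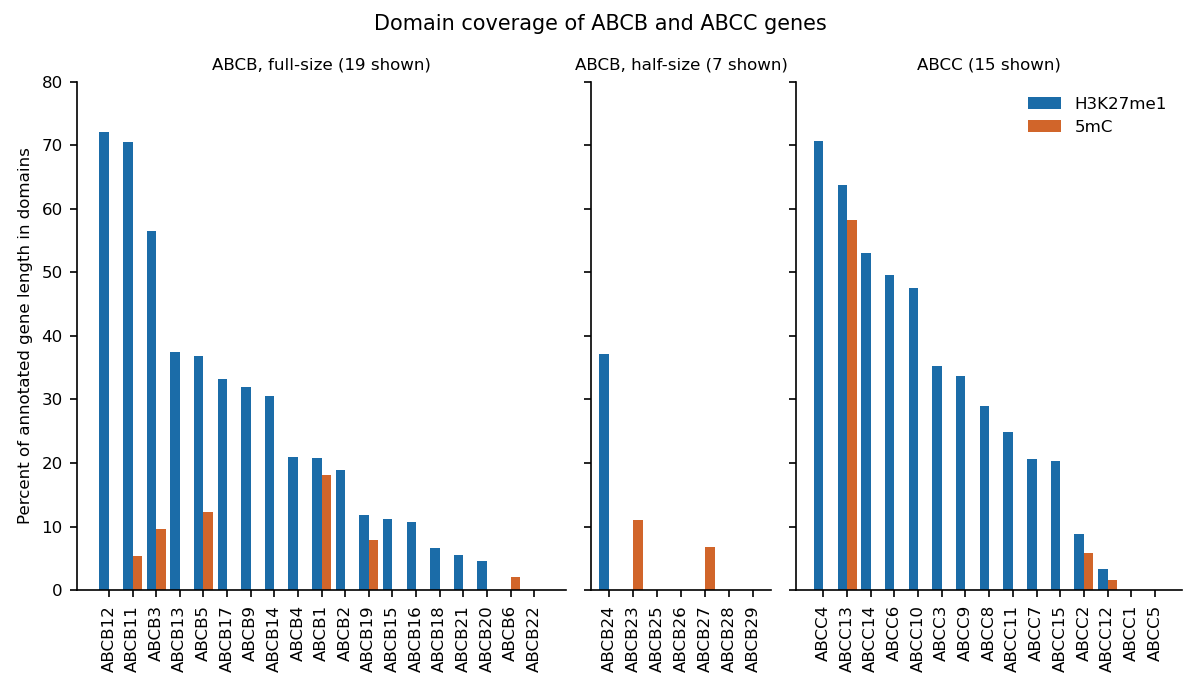
Bars give, for 41 of the members, the percent of the gene's annotated length that lies in H3K27me1 (blue) and 5mC (orange) domains, with 1 list per mark and no replicate error. H3K27me1 bars run from 0 to 72.0%, and 1 gene, ABCC13, has both marks above 50%.

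Most of the full-size ABCB genes carried H3K27me1. It was found on 18 of 20 (90.0%), against 27.3% of genes of like length and region, with a median coverage of 19.9%. ABCB12 (AT1G02530, 4999 bp) had the highest coverage of all members, 72.0%, and its tandem neighbour ABCB11 (AT1G02520, 5534 bp) had 70.5%, with 5.42% in 5mC. Of the 2469 other long arm genes, 0.486% had at least as much as either gene. The high rank of ABCB12 was known beforehand, since the families were chosen through it and ABCC4. ABCB3 (AT4G01820) followed with 56.5% in H3K27me1 and 9.58% in 5mC domains. ABCB5 (AT4G01830) had 36.8% and 12.3%, and ABCB13 (AT1G27940) had 37.4% and 0%. ABCB17, ABCB9 and ABCB14 had 33.3%, 31.9% and 30.6%. ABCB14 is known as a malate importer of guard cells, the cells that open and close stomata.

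The ABCB genes best known for auxin transport had less H3K27me1 than the genes above. ABCB1 and ABCB4 lay just above the full-size median of 19.9%, and ABCB19 and ABCB21 below it. ABCB1 and ABCB19 are auxin exporters that act together in the stem and in seedling growth. ABCB1 (AT2G36910) had 20.8% of its 5776 bp in H3K27me1 domains, and 7.86% of the other long arm genes had at least as much. The 5mC coverage of ABCB1, 18.2%, was the highest of any arm member, and 3.89% of the other long arm genes had at least as much. Of these bases, 750 bp lay in 1 domain with 569 reads per kb of its width, the lowest of the 16 5mC domains on members. ABCB19 (AT3G28860), classed as pericentromeric, had 11.9% in H3K27me1 and 7.92% in 5mC. ABCB4, which moves auxin in the root, had 21.0% in H3K27me1 and 0% in 5mC. At least as much H3K27me1 was found on 7.82% of the other long arm genes. ABCB21, another auxin transporter, had 5.58% in H3K27me1 and 0% in 5mC. The genes ABCB6 and ABCB20 had low values, with 0% in H3K27me1 and 2.07% in 5mC for ABCB6 and 4.59% and 0% for ABCB20. Among other full-size genes, ABCB2 had 18.9% in H3K27me1, ABCB15 11.2%, ABCB16 10.8% and ABCB18 6.60%, all with 0% in 5mC. ABCB22 had no base in either list.

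Few half-size ABCB genes carried H3K27me1, as do few genes of their length. It was found on 1 of 7 (14.3%), ABCB24, with 37.1% of its length, and on 24.4% of genes of like length and region, so a count from 7 genes lies near the background. ABCB24, ABCB23 and ABCB25 are the mitochondrial transporters of the ATM group, and ABCB25 exports a compound needed for iron-sulphur proteins in the cytosol. ABCB23 had 300 of its 2734 bp in 5mC domains and none in H3K27me1, and ABCB25 had neither mark. ABCB27, known as ALS1 for its role in aluminium tolerance, had 6.86% in 5mC and 0% in H3K27me1. ABCB26, ABCB28 and ABCB29 had neither. Half-size genes are shorter, with a median of 4376 bp against 5363 bp for the full-size genes. Within the top length class of arm genes, H3K27me1 was on 0 of 4 half-size genes and on 14 of 15 full-size ABCB genes. The division by size was made after the values were seen, and the difference was not tested.

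ABCC genes carried H3K27me1 on 13 of 15 (86.7%), against 26.3% of genes of like length and region, with a median coverage of 29.0%. ABCC4 (AT2G47800, 5950 bp) led with 70.6% and no 5mC, and 0.486% of the other long arm genes had at least as much H3K27me1. The families were chosen through ABCC4 and ABCB12, so this high rank was known beforehand. ABCC13 (AT2G07680, 7991 bp) had 63.8%, ABCC14 (AT3G62700) 53.1%, ABCC6 (AT3G13090) 49.5% and ABCC10 (AT3G59140) 47.5%. ABCC3, a vacuolar transporter known for cadmium tolerance and for glutathione conjugates, had 35.2%. For the genes whose part in transport is less well known, ABCC9 had 33.7%, ABCC8 29.0%, ABCC11 24.9%, ABCC7 20.7% and ABCC15 20.3%. Apart from ABCC13, none of the ABCC genes in this paragraph had a base in 5mC domains.

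Other ABCC genes with known vacuolar roles lay below ABCC3, with little or no H3K27me1 on ABCC1, ABCC2 and ABCC5. ABCC1 and ABCC2 carry phytochelatins, the peptides that bind heavy metals, into the vacuole. ABCC1 had no base in either list over 10776 bp, and ABCC2 had 8.91% in H3K27me1 and 5.94% in 5mC over 10096 bp. ABCC5, the vacuolar phytate transporter, had no base in either list. ABCC12 had 3.38% in H3K27me1 and 1.69% in 5mC. ABCC1, ABCC2 and ABCC12 are the longest ABCC genes, with 0, 900 and 300 bp in H3K27me1 domains. The part of gene length in their percentages was not tested.

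ABCC13 was the exception among the members. It lies in the pericentromere of chromosome 2, the gene-poor and heterochromatic sequence around the centromere, and was the sole member with at least 25% of its length in 5mC, 58.2%. A coverage of at least 25% was reached by 5.92% of all protein-coding genes and 1.96% of the long arm genes. Among the 237 other genes of like length in pericentromeres, 8.86% reached it, and 5.06% had at least as much 5mC as ABCC13. Its H3K27me1 domains and 5mC domains lay largely on the same bases, 4350 bp of the gene. The wider H3K27me1 domain (TAIR10 chr2:3517201-3521100) had 84.6% of its width in 5mC domains. Of the other 5 members classed as pericentromeric, ABCB19 alone had 5mC. Without ABCC13, 5mC covered 1.93% of the summed member length, against 3.80% with it, and H3K27me1 21.9% against 23.3%.

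**Figure D2:**
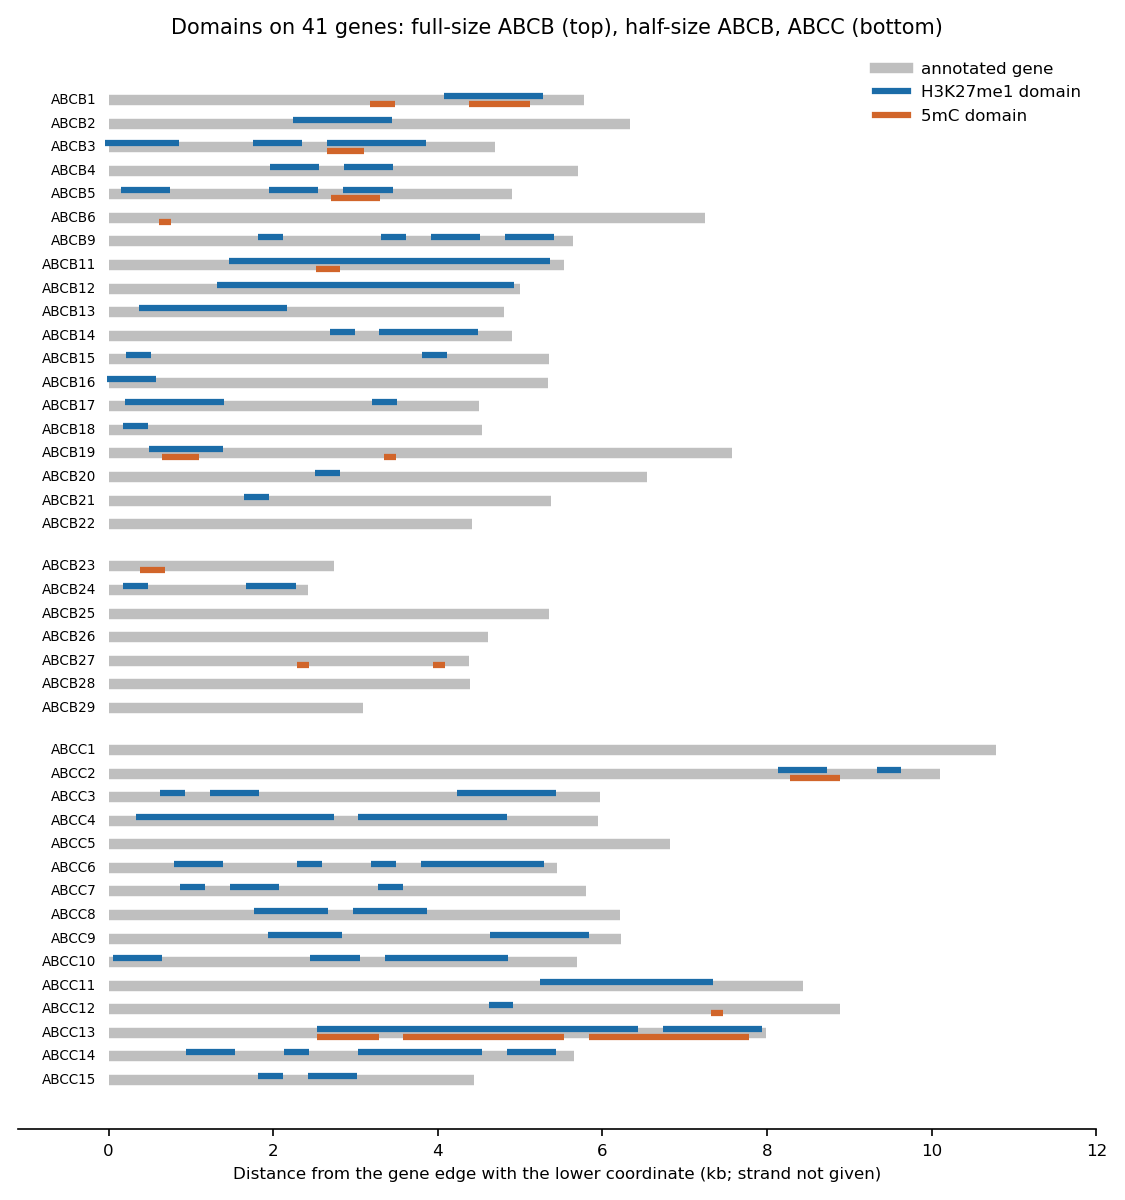
Each grey bar is 1 of 41 members drawn to its annotated length in kb from its edge with the lower coordinate, with H3K27me1 domains in blue and 5mC domains in orange. The blue domains lie inside the gene, apart from those at an edge of ABCB3 and ABCB16, which run past it by 45 and 23 bp.

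Nearly all domains that touched a member lay within its annotated ends. Of the 63 H3K27me1 domains that touched a member, 61 (96.8%) began and ended inside the gene, and the other 2, on ABCB3 and ABCB16, ran past an edge by 45 and 23 bp. All 16 5mC domains lay inside. On the long arm members alone, 53 of 54 H3K27me1 domains (98.1%) and all 10 5mC domains lay inside. This was also the rule on the other long arm genes, where 96.6% of 948 H3K27me1 domains and 95.2% of 1054 5mC domains lay inside. H3K27me1 covered 3.29% of the 500 bp outside the edges of the 39 members of at least 4000 bp, 14.6% of the first 500 bp inside and 27.7% from 1000 to 1500 bp inside. All other long arm genes had 2.25%, 2.53% and 5.89% at the same distances, and those of them touched by H3K27me1 had 3.97%, 9.79% and 22.8%. The 39 members include the 6 pericentromeric ones, while these comparison genes are all on arms. For 5mC, the members had 0.103% just outside the edges and 1.13% just inside, against 1.96% and 1.49% for all other long arm genes. No strand was used, so both ends of each gene were pooled, and the bases outside an edge can belong to a neighbouring member.

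**Figure D3:**
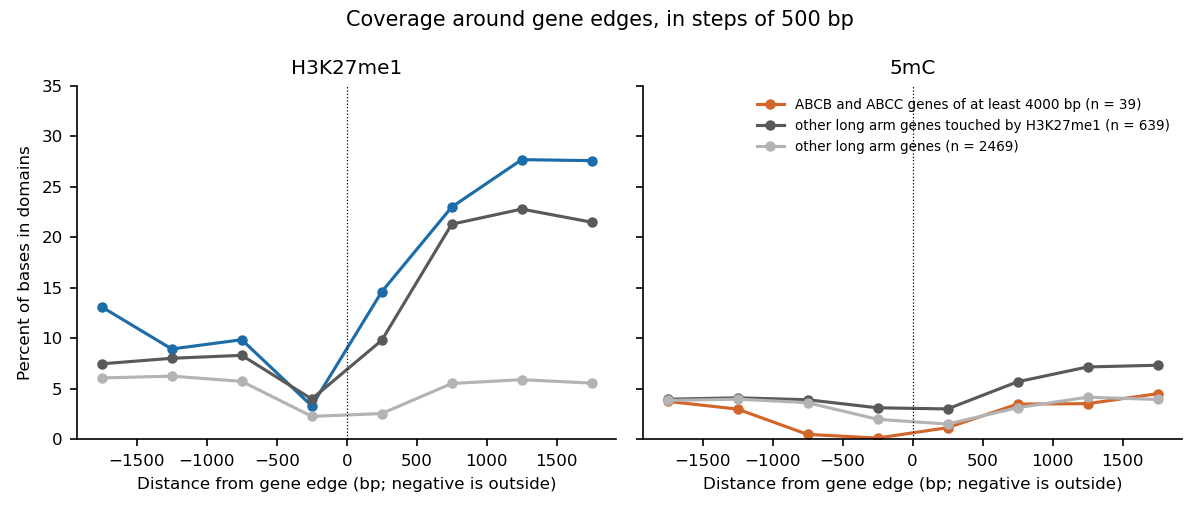
Points give the percent of bases in domains in steps of 500 bp around both gene edges, for H3K27me1 (left) and 5mC (right), with ABCB and ABCC genes in blue or orange, other long arm genes in light grey and those touched by H3K27me1 in dark grey. H3K27me1 on the members is lowest just outside the edge, 3.29%, and reaches 27.7% inside. The members drawn include 6 pericentromeric genes, while the genes in grey are all on arms.

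On most marked members H3K27me1 came in pieces. There were 20 members with several H3K27me1 domains, up to 4 on ABCB9, ABCC6 and ABCC14. Of the 31 gaps between neighbouring domains on 1 gene, 16 were exactly 300 bp, which is 1 calling window. Neither count was made for other genes, so pieces cannot be called particular to the members. The 26 touched long arm members held 54 domains, and the 639 other touched long arm genes held 948. The domains of members had a median width of 600 bp, as did those on the other long arm genes. Domains of at least 1000 bp made up 27.8% of those on the 33 long arm members and 17.0% of those on the other long arm genes. ABCB11 and ABCB12 each held a single wide domain, of 3900 bp (TAIR10 chr1:525001-528900, 1455 reads) and 3600 bp (chr1:531001-534600, 1340 reads). Of the 7166 arm domains, 2.20% and 2.41% were at least as wide. On ABCC4, domains of 2400 bp (chr2:19575001-19577400, 997 reads) and 1800 bp (chr2:19577701-19579500, 643 reads) were 1 window apart. ABCC11 held 1 domain of 2100 bp and ABCB13 1 of 1800 bp.

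The H3K27me1 domains of members had fewer reads per kb than the list as a whole, and about as many as those on other long arm genes. The authors' reads per domain, divided by width, had a median of 393 reads per kb over the 63 domains, with a range of 308 to 576. The median was 388 over the 54 domains on long arm members and 397 on the other long arm genes. It was 447 over the whole list and 530 over its pericentromeric part. ABCB11's domain had 373 reads per kb, and 98.2% of the 111 domains of the same width had at least as many reads. For ABCB12 the values were 372 reads per kb and 99.2% of 131 domains. In 45 of the 63 cases, most domains of equal width in the list had at least as many reads. With the part of the list above its median of reads per kb, H3K27me1 touched 7 of the 33 long arm members (21.2%) and 6.64% of the other long arm genes, and covered 2.12% and 1.11% of their lengths. With domains of at least 1000 bp, 14 of the 33 (42.4%) and 6.03% were touched. The 16 5mC domains had a median of 1036 reads per kb, as did the 10 on long arm members. The median was 933 on the other long arm genes and 1073 over the list.

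On 7 of the 8 members with both marks, the marks shared bases. Sharing was found on 1679 of the 1909 protein-coding genes with both marks and on 159 of 248 such other long arm genes. A count from 8 members lies near the share over all protein-coding genes. Of the 9150 bp of members in 5mC domains, 78.7% were also in H3K27me1 domains, and 63.3% without ABCC13. This share was 66.7% on the 33 long arm members and 29.3% on the other long arm genes. On the 237 other genes of like length in pericentromeres it was 57.7%. The long arm members also had more of their summed length in H3K27me1, 23.6% against 4.71%, and the part of this in the overlap was not tested. In the other direction, 12.8% of the H3K27me1 bases of members lay in 5mC domains, and 5.60% without ABCC13. The values were 5.13% on the long arm members and 20.1% on the other long arm genes. On ABCB1, 750 of the 1050 bp in 5mC domains were also in H3K27me1 domains. ABCB3, ABCB5 and ABCB19 shared 450 bp each, as did ABCC2, and on ABCB11 the 5mC domain of 300 bp fell within the wide H3K27me1 domain. ABCC12 had both marks on separate bases.

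Many members sit in tandem, and neighbours could resemble or differ from each other. With clusters defined, after the values were seen, as members with at most 3 other protein-coding genes between neighbours, 17 members fell into 6 clusters. H3K27me1 was found on 14 of these 17 and on 18 of the 25 others. ABCB11 and ABCB12 on chromosome 1 were nearly equal, with 70.5% and 72.0%. ABCB3 and ABCB5 on chromosome 4 had 56.5% and 36.8%, and they were the sole cluster in which every member had both marks. ABCC3, ABCC6 and ABCC7 on chromosome 3 had 35.2%, 49.5% and 20.7% and no 5mC. The neighbours ABCC1, ABCC12 and ABCC11 on chromosome 1 had 0%, 3.38% and 24.9%, and ABCB24 and ABCB23 on chromosome 4 had 37.1% and 0%.

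The cluster of ABCB15, ABCB16, ABCB17, ABCB18 and ABCB22 on chromosome 3 straddled the boundary between arm and pericentromere and ranged from 0% to 33.3%. Short spacers between neighbouring members held neither mark. The 8 spacers under 2000 bp, from 210 to 1223 bp, had 0 bp in H3K27me1 and 5mC domains. The 500 bp outside the edges of other long arm genes were also little covered, 2.25% in H3K27me1 and 1.96% in 5mC. A value of 0 in 8 short spacers lies near that background. Tandem copies have related sequences, and reads that match several copies may have been placed or dropped in ways that the sources do not give. The part of read placement in these values was not tested.

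The other ABC subfamilies varied widely. The ABCG genes, which include the exporters of cuticle lipids and of abscisic acid, were touched by H3K27me1 in 29 of 42 cases (69.0%) and covered to 18.4% of their summed length. The values for the ABCB genes were 70.4% and 19.7%, and for the ABCC genes 86.7% and 27.9%. Among long arm genes alone, 12 of 18 ABCG genes (66.7%) were touched by H3K27me1, against 26 of 33 members (78.8%). 5mC was found on 2 of 42 ABCG genes (4.76%), against 29.6% of ABCB and 20.0% of ABCC genes. H3K27me1 touched 5 of 12 ABCA genes (41.7%) and covered 4.15% of their length, with no 5mC. The ABCI genes, short genes that mostly encode parts of transporters, had H3K27me1 on 2 of 18 (11.1%) and 5mC on 4. The small subfamilies had H3K27me1 on 2 of 3 ABCE genes, 3 of 5 ABCF genes and 0 of 2 ABCD genes, and it covered 19.7%, 19.3% and 0% of their summed length, against 19.7% for ABCB. 5mC was on 1 ABCE, 1 ABCF and 0 ABCD genes. These differences between subfamilies were not tested.

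**Figure D4:**
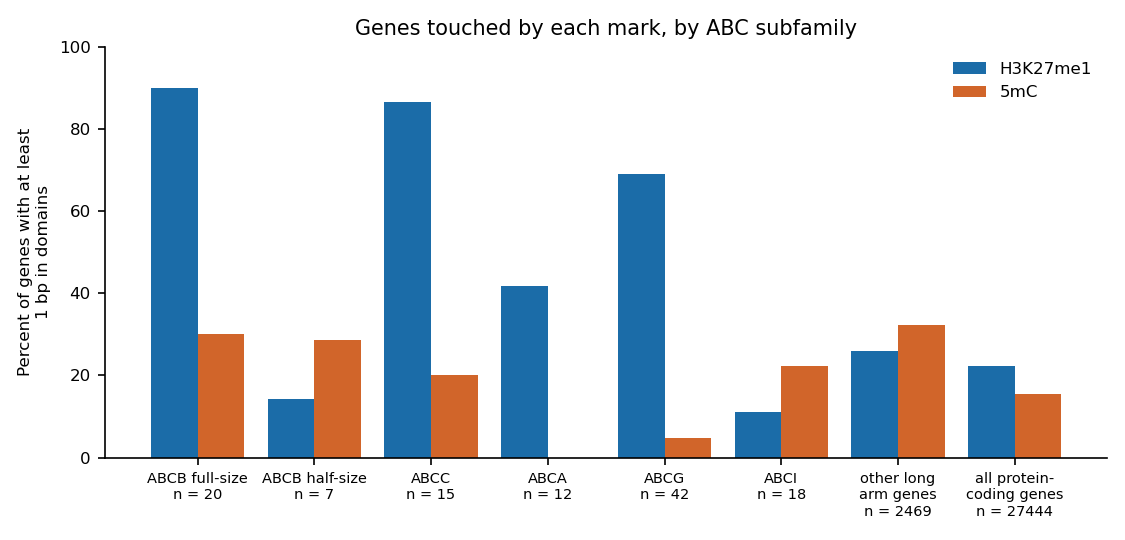
Bars give the percent of genes with at least 1 bp in H3K27me1 (blue) and 5mC (orange) domains, with the number of genes under each group and no replicate error. Full-size ABCB genes (90.0%) and ABCC genes (86.7%) stand above the other long arm genes (25.9%) for H3K27me1, while 1 of 7 half-size ABCB genes is touched, against 24.4% of genes of like length.

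Other genes of the same pathways gave low counts, which in lists this short lie near the background of 22.3% for H3K27me1 and 15.6% for 5mC. Of 14 other genes of auxin transport, 2 were touched by H3K27me1 and none by 5mC. These were the auxin exporters PIN3, with 34.0% of its length, and PIN7, with 8.67%. The importer AUX1, the other PIN genes, the kinase gene PID and TWD1, whose product is needed for ABCB1 and ABCB19 to reach the plasma membrane, had no base in either list. None of 8 genes of glutathione and phytochelatin synthesis and conjugation, among them GSH1, GSH2 and the phytochelatin synthase gene PCS2, was touched by either mark.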

How the data were processed

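The authors deposited 1 list of domains per mark. Bowtie, SICER and the build TAIR10 are named, per the submitters' processing notes; tool versions, thresholds, handling of reads with several matches, whether inputs were used and whether replicates were pooled: not given in the sources used here. The deposited value of each domain is a whole-number read count, not normalized by the authors. Domain widths were multiples of the calling window, 300 bp for H3K27me1 and 150 bp for 5mC, once starts were read as 0-based and ends as inclusive.

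Genes came from the RefSeq table of assembly TAIR10.1. Pseudogenes and domains were overlapped at offsets of up to 5000 bp in steps of 50 bp; the best offset was at most 50 bp on every chromosome for both marks. Coverage was counted in bases from annotated start to end with Python 3.11.15 and pandas 2.3.3, and the overlap code was tested on simulated data. Pericentromeres were the runs of windows of 100000 bp with smoothed protein-coding coverage under 0.7 of the median (26.9 Mb in all). Genes of like length and region shared a length class (1 of 10) within arms or pericentromeres.

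The members, lists and thresholds were chosen with earlier results of these data known. Every member with a base in either list was to be named with its values, with detail for those at 25% or more and for the best-known auxin, malate and vacuolar transporters; of other pathway genes, those touched were to be named. The values of 1 member are not reported here, though it is in all counts. The half-size and full-size classes and the clusters were defined after the values were seen. PIN2 and PCS1 were looked up by locus tag, since the table lists them under EIR1 and CAD1. Alternatives were other overlap thresholds, wider or denser domains, members by synonym, arm members alone, and other classes of like genes; joining domains 300 bp apart was added after seeing the data. No p-value was computed.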

Additional observations from a re-analysis of the deposited data

How the results depend on the processing

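No paired analysis was possible because the domain values are not split by replicate, and so no replicate could be left out either. The 32 members touched by H3K27me1 became 27 with a minimum of 10% of the gene, 16 with domains of at least 1000 bp and 10 with domains above the median of reads per kb. The 6 members at least 50% in H3K27me1 became 17 at 25% and 0 at 80%, 4 with the wide domains, 0 with the dense ones and 8 with domains 300 bp apart joined. For 5mC, the 11 members touched became 4 at 10% of the gene, 1 with the wide and 6 with the dense domains, and the 1 member at 50% (ABCC13) became 0 at 80%, with wide domains, with dense domains and on arms alone. The percent of summed member length in H3K27me1 fell from 23.3% to 13.9% with wide and 2.49% with dense domains, and in 5mC from 3.80% to 1.62%, 1.56% and, on arms alone, 1.89%. Genes of like length and region were touched by H3K27me1 in 26.5% of cases, 26.7% with the 200 genes nearest in length and 25.7% with pericentromeres of fixed width, and by 5mC in 32.8%, 32.6% and 31.0%. Percentages use the annotated gene length, which differs between gene models.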

Other observations

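PGP10, a P-glycoprotein gene on an arm of chromosome 1 that the gene table gives the synonym ABCB10, fell outside the symbol rule. It had 26.8% of its 5593 bp in H3K27me1 and 0% in 5mC domains.

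The protein-coding genes nearest to members on either side were also described. H3K27me1 touched 20 of these 64 genes (31.2%), against 22.3% of all protein-coding genes. It held 13.4% of their summed length, against 7.70% for all protein-coding genes and 23.3% for the members. For 5mC the values were 8 of 64 (12.5%) and 4.78%, near the 15.6% and 3.79% of all protein-coding genes. These neighbours are shorter, with a median of 1699 bp. ABCC5, which had no base in either list, had 38.4% of the 2000 bp on each side of the gene in H3K27me1 domains, the highest share of any member. ABCC4, with 70.6% of the gene in H3K27me1 domains, had 0% on its sides.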
